A study of Homo sapiens with 8 samples.

Results

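The genes described here encode the constitutive proteasome with its regulators and assembly factors, measured in 2 pancreatic cancer cell lines with and without a small interfering RNA (siRNA) against HOXB7, a homeobox transcription factor. The members were all array probes whose gene name begins with PSMA, PSMB, PSMC, PSMD, PSME, PSMF or PSMG and a number, without the immunoproteasome subunits PSMB8 and PSMB9. This rule found 47 gene names on 64 probes, out of 27274 gene names on 34127 probes. One of them, PSMC3IP, a cofactor of meiotic recombination, shares only the letters and was set apart, which left 46 genes on 63 probes. The rule used no measured value, but the genes were chosen with earlier results of these data known. PSMB10 also replaces a constitutive subunit in the immunoproteasome, and it was kept because the rule names it.

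The proteasome degrades proteins that carry ubiquitin chains. Its core particle is a barrel of alpha subunits, which gate the entry, and beta subunits, of which PSMB5, PSMB6 and PSMB7 cut peptide bonds. A regulatory particle sits on the barrel: its base unfolds substrates with the ATPases PSMC1 to PSMC6, and its lid removes ubiquitin. Activators of the PSME family bind the same barrel ends, PSMF1 is an inhibitor of the core in vitro, and dedicated chaperones assemble core and base. When the proteasome is inhibited, the transcription factor NFE2L1 raises the transcription of most subunits together.

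MIA PaCa-2 and Capan-1 are lines derived from pancreatic ductal adenocarcinoma, the latter from a liver metastasis. Each line gave 2 arrays of cells 48 hours after transfection with 10 nM of a Dicer-substrate siRNA specific for HOXB7 and 2 arrays of parental cells, so that 8 arrays formed 4 groups. The question was which transcripts differ after HOXB7 silencing. Arrays of cells given a non-targeting siRNA were not analysed here, so that the effect of transfection cannot be told apart from that of HOXB7 loss. Nothing in the labels says whether the replicates of a group came from separate cultures, so the tests may measure technical spread only.

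On each array 69.2% to 74.3% of the gene spots were well above background, and no spot was saturated. A level is given below as log2 of the signal relative to the 75th percentile of its array, so that 0 marks a probe at that percentile. On this scale HOXB7 was at -7.77 and -7.78 in MIA PaCa-2 siRNA, -4.82 and -4.10 in MIA PaCa-2 parental, -5.26 and -4.80 in Capan-1 siRNA and -2.48 and -2.34 in Capan-1 parental cells. Its probe was not well above background in siRNA-treated MIA PaCa-2 cells, where the signal was at least 3.16-fold lower than in parental cells (limma adjusted p = 0.0174); with normexp background correction the difference was -0.10 and did not pass (adjusted p = 0.588). In Capan-1 the difference was -2.62 ± 0.26 (± SE; adjusted p = 0.126). It passed in 4 of 14 alternatives, namely without scaling between the arrays (adjusted p = 0.0201), with normexp (a difference of -0.66), with an intensity trend in the spread and without Capan-1 siRNA replicate 2. The arrays of each line lay on a slide of their own, so slide and line cannot be told apart, and siRNA and parental RNA took the same positions on both slides, so position and treatment cannot be told apart. Of the epithelial markers examined, 7 of 8 probes were lower in parental MIA PaCa-2 than in parental Capan-1 cells, and EPCAM and CDH1 were not well above background in the former.

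Most members were abundant transcripts. Of the 63 probes, 57 were well above background on all 8 arrays, and the mean level of the tested probes ran from -4.21 to 6.62 with a median of 4.03. The PSMA8 probe, which reads a testis-enriched alpha subunit, and 1 of 3 PSMG4 probes were above background on no array and entered no test. The PSMB11 probes, which read a beta subunit of the thymus, were above background in MIA PaCa-2 and on at most 1 array of each Capan-1 group. The first 30 of the 60 bases of a probe are shown here for the 3 members with the lowest unadjusted p after siRNA in Capan-1, with the hg18 position of the whole probe from the array design. Exons and introns of that build were not looked up here.
PSMA4, chr15:76625033-76625092, plus strand: aaacgtccctttggtgtttcattgctgtac
PSMB5, chr14:22565325-22565384, minus strand: ggccaccttctctgtaggttctggctctgt
PSME2, chr14:23682417-23682476, minus strand: aaagccatctatgtactgaacccgggacta

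HOXB7 siRNA left no single member past the threshold in either line. In MIA PaCa-2, 0 of 61 member probes passed an adjusted p of 0.05 (limma, Benjamini-Hochberg over all probes tested), against 1.89% of all 23719 probes. At an unadjusted p below 0.05, 5 were lower (background 10.0%) and 1 was higher (background 10.4%). In Capan-1, 0 of 57 member probes passed (background 0.00428%, a single probe); unadjusted, none was lower (background 6.82%) and 6 were higher (background 5.63%). By an alternative way of calling, an interval around the differences between the parental arrays, 0 members were called in either line as well, against 0.540% and 1.84% of all probes.

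The median difference of the members had opposite signs in the 2 lines. In MIA PaCa-2 the siRNA minus parental difference lay below 0 in 48 of 61 member probes (46.9% of all probes) and in 37 of 45 genes by their brightest probe. The median over the genes was -0.080, that of all probes 0.019. In Capan-1 the difference lay above 0 in 46 of 57 probes (48.7% of all probes) and in 36 of 44 genes, with a median of 0.12 against -0.0055. Without scaling between the arrays, where the median of all probes was -0.158 in this line, 27 of the 44 genes lay below 0 and the members' median was -0.030. For MIA PaCa-2, the siRNA arrays were both lower than either parental array in 24 of 61 member probes (background 23.6%) and both higher in 4 (27.8%). For Capan-1, they were both higher in 32 of 57 (26.3%) and both lower in 3 (27.9%). These counts run over genes, which are not replicates. The RNA came from whole cultures, where fewer cells with a transcript and less of it in each cell cannot be told apart.

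**Figure D1:**
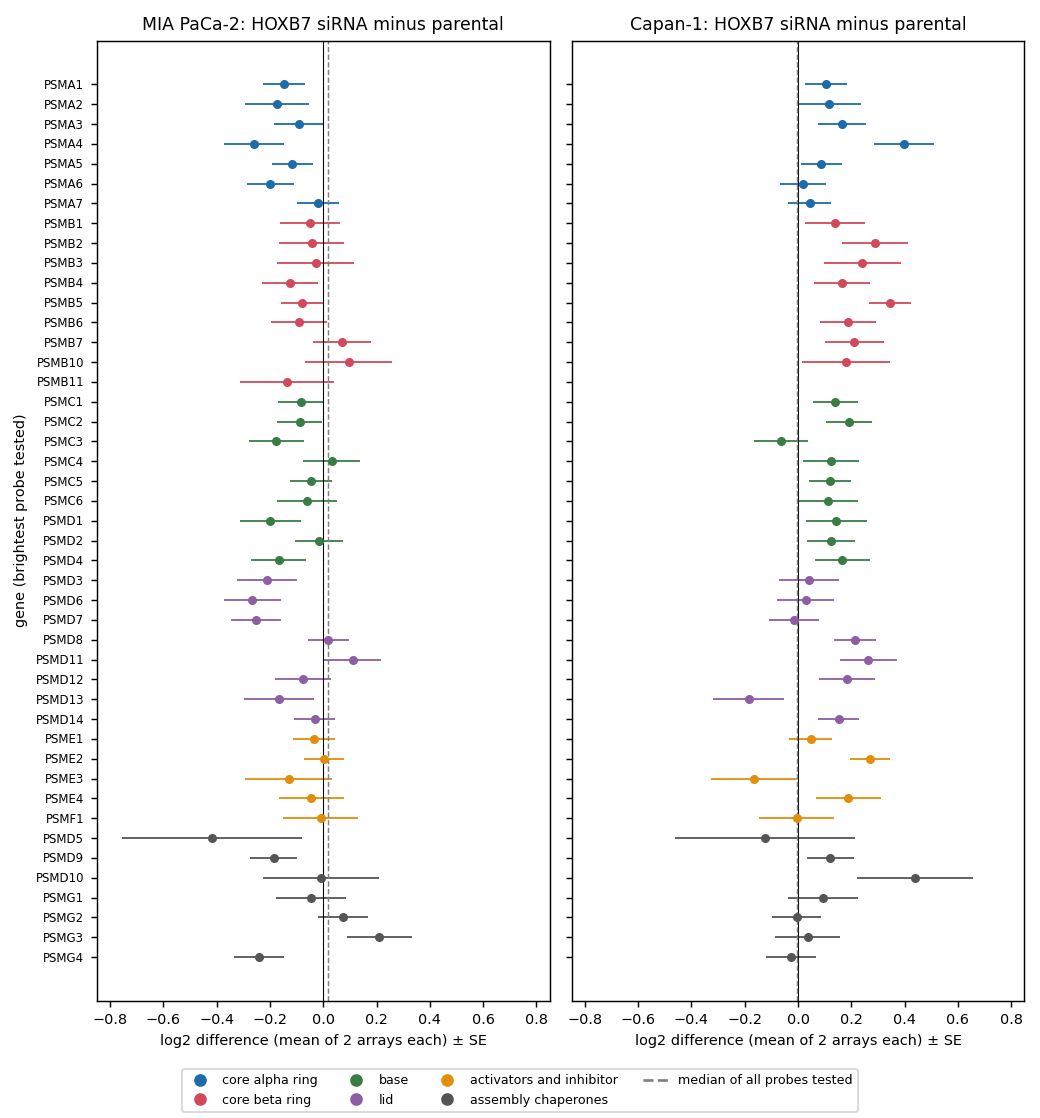
Difference between HOXB7 siRNA and parental cells for each proteasome gene by its brightest tested probe, in MIA PaCa-2 (left) and Capan-1 (right), as log2 difference with bars of 1 SE from limma. Each group is 2 arrays, colours mark the classes, and the dashed line is the median of all probes tested. Of 45 genes, 37 lie left of 0 in MIA PaCa-2, and of 44 genes, 36 lie right of 0 in Capan-1; none passed the threshold.

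The medians were also read array by array. With each probe centred on its mean in the line, the median of the members minus the median of all probes came to -0.050 and -0.056 in siRNA-treated MIA PaCa-2 cells, with parental values of 0.039 and 0.075. In Capan-1 the treated cells gave 0.0068 and 0.122, their parental counterparts -0.058 and -0.079. By the median of all members, the siRNA and parental arrays thus did not overlap in either line. In Capan-1, however, siRNA replicate 1 lay close to 0 and replicate 2 well above it. By class, the MIA PaCa-2 arrays overlapped for the beta subunits (siRNA -0.017 and -0.067, parental -0.064 and 0.102). They also did for the activators and inhibitor (siRNA -0.069 and 0.040, parental 0.067 and -0.019). An exact permutation test of 2 against 2 arrays cannot go below p = 0.333, so that the members' median was given no test. The Capan-1 shift relative to all probes, 0.128, was 0.062 without siRNA replicate 2 and 0.198 without siRNA replicate 1, and the number of genes below 0 changed from 8 to 12 and 4. With normexp background correction the Capan-1 shift was 0.045 and the MIA PaCa-2 shift -0.178, in place of -0.099. Among probes brighter than the 75th percentile, as most members are, the median of all such probes was -0.0025 in MIA PaCa-2, whereas that in Capan-1 was 0.028.

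**Figure D2:**
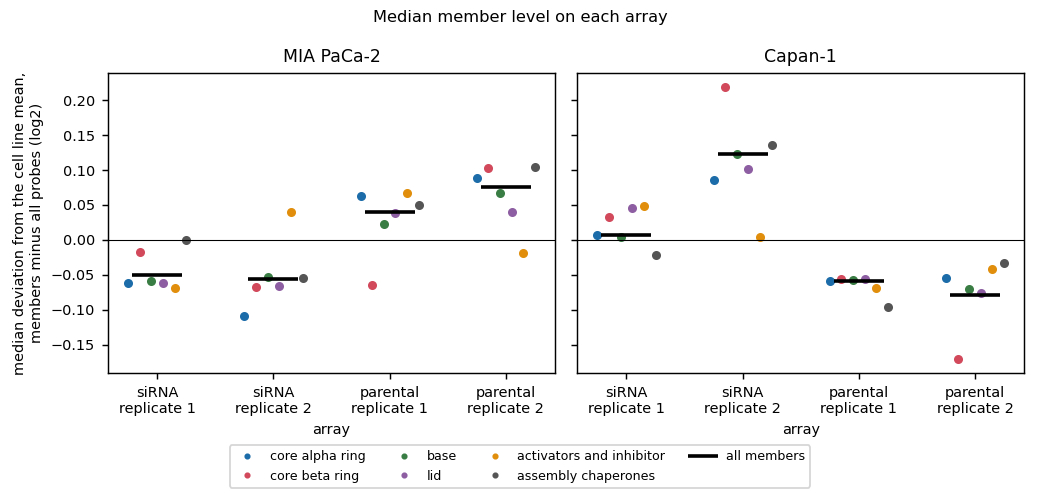
Median level of the members on each array as a deviation from the mean of the cell line, minus the same for all probes (log2). Points are the classes and black bars all members. In MIA PaCa-2 the 2 siRNA bars are lower than either parental bar, and in Capan-1 they are higher. The MIA PaCa-2 points of the beta subunits and of the activators and inhibitor overlap between siRNA and parental arrays.

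The difference of the siRNA effects, MIA PaCa-2 minus Capan-1, was tested probe by probe. It passed the threshold in 0 of 61 member probes (background 0.00391%), with 4 lower (4.86%) and 0 higher (6.27%) at an unadjusted p below 0.05. It lay below 0 in 55 of 61 probes (47.5% of all probes) and in 41 of 45 genes, with a median of -0.23 over the genes against 0.018 over all probes. Of the 61 member probes, 4 (both of PSMB11, 1 of PSMA1 and 1 of PSMG4) entered through MIA PaCa-2 alone. They were above background on at most 1 array of each Capan-1 group. Without them 51 of 57 probes and 40 of 44 genes lay below 0. The 4 genes above 0 were PSMD13, PSME3, PSMG2 and PSMG3. Averaged over both lines, the siRNA effect passed in 0 of 61 probes (background 2.06%), with 1 lower (11.3%) and 4 higher (10.6%) at an unadjusted p below 0.05; its median was 0.028.

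Among the alpha subunits all 7 tested genes lay below 0 in MIA PaCa-2 (median -0.15) and all 7 above 0 in Capan-1 (median 0.11). PSMA4 differed most, at 3.71 and 3.55 in MIA PaCa-2 siRNA, 3.94 and 3.84 in MIA PaCa-2 parental, 4.51 and 4.49 in Capan-1 siRNA and 4.22 and 3.98 in Capan-1 parental cells. The siRNA arrays lay outside the parental arrays in both lines, lower in MIA PaCa-2 (-0.26 ± 0.11, adjusted p = 0.266) and higher in Capan-1 (0.40 ± 0.11, adjusted p = 0.304), and the difference between the lines, -0.66 ± 0.16, did not pass either (adjusted p = 0.254, 95% interval -1.05 to -0.27). At the other end of the class PSMA7 stood at 4.85 and 4.81 in MIA PaCa-2 siRNA, 4.86 and 4.84 in MIA PaCa-2 parental, 5.44 and 5.54 in Capan-1 siRNA and 5.43 and 5.46 in Capan-1 parental cells, with differences of -0.021 ± 0.079 and 0.044 ± 0.079. PSMA6 was at 5.65 and 5.58 in MIA PaCa-2 siRNA, 5.79 and 5.83 in MIA PaCa-2 parental, 6.78 and 6.82 in Capan-1 siRNA and 6.86 and 6.71 in Capan-1 parental cells. Its siRNA arrays were both lower than the parental ones in MIA PaCa-2 (-0.20 ± 0.088, adjusted p = 0.273) and overlapped them in Capan-1 (0.018 ± 0.088).

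Between the parental lines 4 of 7 alpha subunits were lower in MIA PaCa-2 and 1 was higher, where 31.7% of all genes were lower and 40.0% higher. PSMA6 was lower by the widest margin (-0.97 ± 0.088, adjusted p = 0.000146), followed by PSMA7 (-0.60 ± 0.079, adjusted p = 0.000831). PSMA3 stood at 4.84 and 4.69 in MIA PaCa-2 siRNA, 4.89 and 4.82 in MIA PaCa-2 parental, 5.56 and 5.58 in Capan-1 siRNA and 5.46 and 5.35 in Capan-1 parental cells, a parental difference of -0.55 ± 0.092 (adjusted p = 0.00224). PSMA5 stood at 4.84 and 4.81 in MIA PaCa-2 siRNA, 4.91 and 4.96 in MIA PaCa-2 parental, 5.37 and 5.43 in Capan-1 siRNA and 5.30 and 5.32 in Capan-1 parental cells, a difference of -0.37 ± 0.076 (adjusted p = 0.00546). In these 4 genes every MIA PaCa-2 array lay below every Capan-1 array, treated or not. PSMA1 went the other way, at 4.67 and 4.60 in MIA PaCa-2 siRNA, 4.77 and 4.80 in MIA PaCa-2 parental, 4.34 and 4.27 in Capan-1 siRNA and 4.19 and 4.20 in Capan-1 parental cells (0.59 ± 0.078, adjusted p = 0.000812). PSMA2 and PSMA4 did not pass.

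The beta subunits gave the highest median of any class in Capan-1, 0.20, with all 8 tested genes above 0 between 0.14 and 0.35. Read array by array as above, the class stood at 0.033 and 0.219 in Capan-1 siRNA and -0.056 and -0.171 in Capan-1 parental cells. In MIA PaCa-2 their median was -0.051, with 7 of 9 genes below 0. PSMB5, the chymotrypsin-like subunit and the target of bortezomib, was at 5.71 and 5.66 in MIA PaCa-2 siRNA, 5.77 and 5.76 in MIA PaCa-2 parental, 6.06 and 6.13 in Capan-1 siRNA and 5.80 and 5.70 in Capan-1 parental cells. Both Capan-1 siRNA arrays were above all 6 others, a 1.27-fold difference (0.35 ± 0.080) with the lowest unadjusted p of any member in that line, 0.00523, and an adjusted p of 0.261 in limma. In MIA PaCa-2 the difference was -0.08 ± 0.080, and the effects of the lines differed by -0.43 ± 0.11 (adjusted p = 0.291). PSMB1, a structural beta subunit, had the smallest difference of the class in Capan-1, 0.14 ± 0.11, at levels of 7.04 and 6.88 in MIA PaCa-2 siRNA, 6.91 and 7.10 in MIA PaCa-2 parental, 6.20 and 6.23 in Capan-1 siRNA and 6.16 and 5.995 in Capan-1 parental cells. PSMB10, the inducible counterpart of PSMB7, was at 4.05 and 3.97 in MIA PaCa-2 siRNA, 3.73 and 4.11 in MIA PaCa-2 parental, 4.25 and 4.54 in Capan-1 siRNA and 4.30 and 4.13 in Capan-1 parental cells, with overlapping arrays in both lines and differences of 0.095 ± 0.16 and 0.18 ± 0.16.

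Parental MIA PaCa-2 cells had higher levels of 5 of 9 beta subunits than parental Capan-1 cells (40.0% of all genes), and no beta subunit was lower by all its probes. The 5 include PSMB11, which entered the test only through MIA PaCa-2, the line where it was high. PSMB6, the caspase-like subunit, was at 5.84 and 5.80 in MIA PaCa-2 siRNA, 5.86 and 5.96 in MIA PaCa-2 parental, 5.24 and 5.48 in Capan-1 siRNA and 5.19 and 5.16 in Capan-1 parental cells (0.74 ± 0.10, adjusted p = 0.00111). PSMB7, the trypsin-like subunit, was at 6.21 and 6.18 in MIA PaCa-2 siRNA, 6.01 and 6.24 in MIA PaCa-2 parental, 5.48 and 5.62 in Capan-1 siRNA and 5.38 and 5.30 in Capan-1 parental cells (0.79 ± 0.11, adjusted p = 0.00102). For both, and for PSMB1 (0.93 ± 0.11, adjusted p = 0.00054), all MIA PaCa-2 arrays lay above all Capan-1 arrays. PSMB4 was at 5.71 and 5.59 in MIA PaCa-2 siRNA, 5.77 and 5.78 in MIA PaCa-2 parental, 5.53 and 5.57 in Capan-1 siRNA and 5.50 and 5.27 in Capan-1 parental cells (0.39 ± 0.10, adjusted p = 0.0163), and its call was lost without any of MIA PaCa-2 parental replicates 1 and 2 and Capan-1 parental replicate 2, with an adjusted p of up to 0.091. PSMB5, in contrast, differed between the parental lines by 0.015 ± 0.080 (95% interval -0.18 to 0.21). The brightest probe of the dim PSMB11 stood at -3.17 and -3.37 in MIA PaCa-2 siRNA, -3.08 and -3.19 in MIA PaCa-2 parental, -4.94 and -5.40 in Capan-1 siRNA and -5.15 and -5.37 in Capan-1 parental cells. By this probe PSMB11 was at least 4.37-fold higher in parental MIA PaCa-2 (adjusted p = 0.000101), since Capan-1 parental cells were not above background. With normexp, which adds an offset to every signal, the difference of this probe was 0.43, under that bound. The other PSMB11 probe was above background on 1 Capan-1 parental array, and its difference of 1.17 did not pass (limma adjusted p = 0.113).

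In the base, 8 of 9 genes lay below 0 in MIA PaCa-2 (median -0.085) and 8 of 9 above 0 in Capan-1 (median 0.12). PSMD1, a scaffold of the base, had the lowest value in MIA PaCa-2, -0.20 ± 0.11 (adjusted p = 0.383), at levels of 4.34 and 4.28 in MIA PaCa-2 siRNA, 4.40 and 4.63 in MIA PaCa-2 parental, 4.74 and 4.85 in Capan-1 siRNA and 4.73 and 4.57 in Capan-1 parental cells. PSMC2, an ATPase, had the highest value in Capan-1, 0.19 ± 0.086 (adjusted p = 0.429), at 3.56 and 3.44 in MIA PaCa-2 siRNA, 3.58 and 3.61 in MIA PaCa-2 parental, 3.71 and 3.82 in Capan-1 siRNA and 3.59 and 3.55 in Capan-1 parental cells. In both cases the siRNA arrays lay on one side of the parental arrays of that line. The exceptions in sign were PSMC4 in MIA PaCa-2 (0.031 ± 0.11) and PSMC3 in Capan-1 (-0.064 ± 0.10), both within 1 SE of 0, and leaving out 1 array turned either sign (PSMC4 -0.057 without parental replicate 2 and -0.023 without siRNA replicate 2, PSMC3 0.020 without siRNA replicate 1).

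The ATPases of the parental lines did not move as a block. PSMC5 was lower in MIA PaCa-2 by the widest margin, at 2.01 and 2.06 in MIA PaCa-2 siRNA, 2.08 and 2.09 in MIA PaCa-2 parental, 2.87 and 2.97 in Capan-1 siRNA and 2.81 and 2.80 in Capan-1 parental cells (-0.72 ± 0.078, adjusted p = 0.00034). PSMC4, at 3.01 and 3.12 in MIA PaCa-2 siRNA, 3.12 and 2.95 in MIA PaCa-2 parental, 3.72 and 3.82 in Capan-1 siRNA and 3.58 and 3.72 in Capan-1 parental cells, was also lower (-0.61 ± 0.11, adjusted p = 0.00261). PSMC3 levels were 3.20 and 3.32 in MIA PaCa-2 siRNA, 3.51 and 3.37 in MIA PaCa-2 parental, 3.87 and 4.04 in Capan-1 siRNA and 3.997 and 4.04 in Capan-1 parental cells, again lower (-0.58 ± 0.10, adjusted p = 0.00296). For these ATPases no MIA PaCa-2 array reached a Capan-1 array. PSMC6, at 3.21 and 3.11 in MIA PaCa-2 siRNA, 3.09 and 3.35 in MIA PaCa-2 parental, 3.78 and 3.89 in Capan-1 siRNA and 3.69 and 3.75 in Capan-1 parental cells, completed the 4 that were lower (-0.50 ± 0.11, adjusted p = 0.00836), while PSMC1, at 5.17 and 5.15 in MIA PaCa-2 siRNA, 5.18 and 5.31 in MIA PaCa-2 parental, 4.87 and 4.97 in Capan-1 siRNA and 4.76 and 4.80 in Capan-1 parental cells, was higher (0.47 ± 0.086, adjusted p = 0.00355). PSMD4, a ubiquitin receptor, was at 4.75 and 4.69 in MIA PaCa-2 siRNA, 4.90 and 4.87 in MIA PaCa-2 parental, 4.59 and 4.78 in Capan-1 siRNA and 4.60 and 4.44 in Capan-1 parental cells and higher in parental MIA PaCa-2 (0.37 ± 0.10, adjusted p = 0.0191), a call lost without MIA PaCa-2 parental replicate 1 or 2 or Capan-1 parental replicate 2 (adjusted p up to 0.107). PSMC2, PSMD1 and PSMD2 did not pass.

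The lid genes had a median of -0.12 in MIA PaCa-2, whereas Capan-1 gave 0.097. PSMD6, a structural lid subunit, had the lowest value in MIA PaCa-2, -0.27 ± 0.11 (unadjusted p = 0.0471, adjusted p = 0.237 in limma), at 2.71 and 2.62 in MIA PaCa-2 siRNA, 2.85 and 3.01 in MIA PaCa-2 parental, 2.99 and 3.18 in Capan-1 siRNA and 3.02 and 3.09 in Capan-1 parental cells. The MIA PaCa-2 siRNA arrays were the 2 lowest of the 8. PSMD11, whose abundance limits proteasome assembly in several systems, had the highest value in both lines, 0.11 ± 0.11 for MIA PaCa-2 and, for Capan-1, 0.26 ± 0.11 (adjusted p = 0.396). Its levels were 2.73 and 2.87 in MIA PaCa-2 siRNA, 2.59 and 2.79 in MIA PaCa-2 parental, 3.29 and 3.39 in Capan-1 siRNA and 3.11 and 3.05 in Capan-1 parental cells, without overlap between Capan-1 siRNA and parental arrays. PSMD13 gave the lowest value in Capan-1, -0.18 ± 0.13 (adjusted p = 0.598), at 2.58 and 2.59 in MIA PaCa-2 siRNA, 2.89 and 2.61 in MIA PaCa-2 parental, 2.38 and 2.64 in Capan-1 siRNA and 2.66 and 2.74 in Capan-1 parental cells; it lay below 0 in both lines.

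PSMD3 was the lid subunit with the widest parental difference, at 2.73 and 2.88 in MIA PaCa-2 siRNA, 3.13 and 2.90 in MIA PaCa-2 parental, 3.89 and 3.83 in Capan-1 siRNA and 3.77 and 3.87 in Capan-1 parental cells, lower in MIA PaCa-2 (-0.80 ± 0.11, adjusted p = 0.00106). PSMD11 was lower too (-0.39 ± 0.11, adjusted p = 0.0174). PSMD14, the deubiquitinase of the lid, was at 4.36 and 4.28 in MIA PaCa-2 siRNA, 4.35 and 4.36 in MIA PaCa-2 parental, 4.13 and 4.12 in Capan-1 siRNA and 3.99 and 3.95 in Capan-1 parental cells and higher in MIA PaCa-2 (0.38 ± 0.077, adjusted p = 0.00499). All PSMD14 levels of MIA PaCa-2 exceeded those of Capan-1. PSMD8 was higher as well, at 5.44 and 5.47 in MIA PaCa-2 siRNA, 5.42 and 5.45 in MIA PaCa-2 parental, 5.35 and 5.42 in Capan-1 siRNA and 5.14 and 5.20 in Capan-1 parental cells (0.27 ± 0.078, adjusted p = 0.0222). The PSMD11 call was lost without MIA PaCa-2 parental replicate 1 or either Capan-1 parental replicate (adjusted p up to 0.0866), and the PSMD8 call without MIA PaCa-2 parental replicate 2 or either Capan-1 parental replicate (up to 0.116). PSMD6, PSMD7, PSMD12 and PSMD13 did not pass.

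Activators and the inhibitor lay closest to 0 in MIA PaCa-2 as a class, with a median of -0.035, and had a median of 0.047 in Capan-1. PSME2, which with PSME1 forms an interferon-inducible activator, was at 6.34 and 6.29 in MIA PaCa-2 siRNA, 6.32 and 6.30 in MIA PaCa-2 parental, 7.07 and 7.06 in Capan-1 siRNA and 6.82 and 6.76 in Capan-1 parental cells. Both Capan-1 siRNA arrays were above all 6 other arrays, a difference of 0.27 ± 0.075 (unadjusted p = 0.0118, adjusted p = 0.304 in limma), and in MIA PaCa-2 the difference was 0.0038 ± 0.075. PSME1, its partner, was at 1.19 and 1.24 in MIA PaCa-2 siRNA, 1.29 and 1.20 in MIA PaCa-2 parental, 1.11 and 1.05 in Capan-1 siRNA and 1.05 and 1.02 in Capan-1 parental cells, with differences of -0.035 ± 0.080 and 0.047 ± 0.080. PSME3, the nuclear activator, was at 1.94 and 2.16 in MIA PaCa-2 siRNA, 2.36 and 1.996 in MIA PaCa-2 parental, 3.49 and 3.39 in Capan-1 siRNA and 3.48 and 3.73 in Capan-1 parental cells, with overlapping arrays in both lines and differences of -0.13 ± 0.16 and -0.17 ± 0.16. PSME4, another nuclear activator, had its brighter probe at 0.80 and 1.09 in MIA PaCa-2 siRNA, 1.01 and 0.98 in MIA PaCa-2 parental, 1.05 and 1.22 in Capan-1 siRNA and 0.92 and 0.97 in Capan-1 parental cells, a Capan-1 difference of 0.19 ± 0.12.

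Between the parental lines all 5 genes of this class passed by at least 1 probe, as did 73.1% of all genes. PSME3 was lower in MIA PaCa-2 by the widest margin of any brightest probe, -1.43 ± 0.16 (adjusted p = 0.00041), or 0.371 of the Capan-1 signal. PSME2 was lower (-0.48 ± 0.075, adjusted p = 0.00177), as was PSMF1. PSME1 was higher by 0.22 ± 0.080 with an adjusted p of 0.0496; this call was lost without any 1 of the 4 parental arrays (adjusted p 0.0574 to 0.174). The partners PSME1 and PSME2 therefore had opposite parental signs, one of them at the threshold.

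Assembly chaperones had a median of -0.046 in MIA PaCa-2, whereas Capan-1 gave 0.037. PSMD5, a chaperone of the base, had the lowest value of the class in both lines by its brightest probe, -0.42 ± 0.34 and -0.12 ± 0.34. That probe was also the most variable, at 0.95 and 1.63 in MIA PaCa-2 siRNA, 1.61 and 1.81 in MIA PaCa-2 parental, -0.03 and 0.86 in Capan-1 siRNA and 0.48 and 0.60 in Capan-1 parental cells, and siRNA and parental arrays overlapped in both lines. The dimmer PSMD5 probe had the opposite sign in both lines, again with overlapping arrays. Its means were -1.01 in siRNA and -1.09 in parental cells for MIA PaCa-2, and -2.45 and -2.54 for Capan-1. PSMD10 (gankyrin), also a base chaperone, had the highest value in Capan-1, 0.44 ± 0.22 (adjusted p = 0.461), at 2.09 and 1.99 in MIA PaCa-2 siRNA, 1.71 and 2.38 in MIA PaCa-2 parental, 1.15 and 1.35 in Capan-1 siRNA and 0.86 and 0.76 in Capan-1 parental cells. PSMG3, a core chaperone, had the highest in MIA PaCa-2, 0.21 ± 0.12 (adjusted p = 0.392), at 2.87 and 2.88 in MIA PaCa-2 siRNA, 2.65 and 2.67 in MIA PaCa-2 parental, 2.66 and 2.95 in Capan-1 siRNA and 2.69 and 2.85 in Capan-1 parental cells. The brightest probe of PSMG4, its partner in the heterodimer, was at 3.62 and 3.51 in MIA PaCa-2 siRNA, 3.83 and 3.78 in MIA PaCa-2 parental, 1.43 and 1.44 in Capan-1 siRNA and 1.55 and 1.38 in Capan-1 parental cells and had a MIA PaCa-2 difference of -0.24 ± 0.094 (adjusted p = 0.229) with no overlap. By these probes the partners lay on opposite sides of 0. A dimmer PSMG4 probe (probe 2 below) was instead higher after siRNA in MIA PaCa-2, also without overlap and not past the threshold.

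Of the 7 chaperones, 5 were higher by at least 1 probe and none was lower in parental MIA PaCa-2 cells, where 40.0% of all genes were higher and 31.7% lower. By the brightest probe 4 were higher, since PSMD9 passed only by its dimmer probe (1.06, and 0.24 with normexp) and its brightest probe gave -0.0036. PSMG4 had the widest difference of any brightest probe, 2.35 ± 0.094, a 5.08-fold ratio (adjusted p = 5.1e-06). PSMD10 was 2.35-fold higher (1.23 ± 0.22, adjusted p = 0.00291). The higher level of PSMD5 held by both probes, 1.17 ± 0.34 and 1.45 ± 0.13 (adjusted p = 0.0215 and 0.000166; 0.83 for the latter with normexp). PSMG1, at 4.74 and 4.52 in MIA PaCa-2 siRNA, 4.77 and 4.58 in MIA PaCa-2 parental, 4.36 and 4.29 in Capan-1 siRNA and 4.35 and 4.11 in Capan-1 parental cells, was higher by 0.45 ± 0.13 (adjusted p = 0.0233), a call lost without MIA PaCa-2 parental replicate 1 or Capan-1 parental replicate 2 (adjusted p up to 0.124). PSMG2, at 1.68 and 1.71 in MIA PaCa-2 siRNA, 1.59 and 1.64 in MIA PaCa-2 parental, 1.74 and 1.76 in Capan-1 siRNA and 1.66 and 1.85 in Capan-1 parental cells, had the lowest value, -0.14 ± 0.092 (adjusted p = 0.234), and PSMG3 did not pass either.

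Over all members the parental comparison called 42 of 61 probes, 68.9%, against a background of 70.0% of all probes. There were 18 lower in MIA PaCa-2 (31.0% of all probes were) and 24 higher (39.1%), of which 3 entered the test through MIA PaCa-2 alone. By gene, 13 of 45 were lower (31.7% of all genes), 17 were higher (40.0%), PSMB2 had probes in both directions and 14 had none past the threshold. The 17 include PSMB11, which entered the test through MIA PaCa-2 alone. Without scaling between the arrays, 19 genes in place of 30 passed in a single direction. The probes described here that then lost their call were those of PSMA5, PSMB4, PSMC3, PSMC4, PSMD4, PSMD8, PSMD11, PSMD14, PSME1, PSME2 and PSMG1, PSMB2 probe 1 and the dimmer PSME4 probe, with adjusted p from 0.0534 to 0.300. The lower genes were 4 alpha subunits, 4 base subunits, 2 lid subunits and 3 of the activators and inhibitor. The higher ones were 5 beta subunits, 5 chaperones, 2 base subunits, 2 lid subunits, 2 activators and 1 alpha subunit. No test compared the classes.

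**Figure D3:**
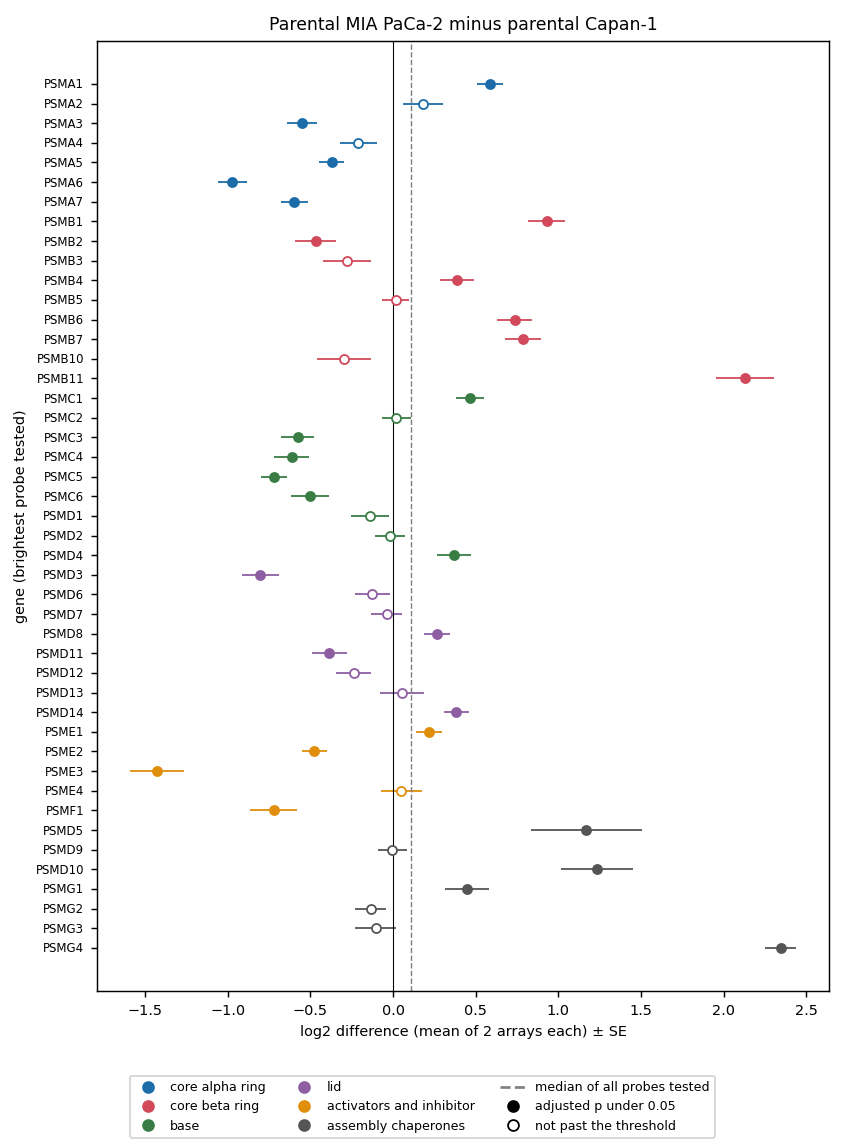
Parental MIA PaCa-2 minus parental Capan-1 for each proteasome gene by its brightest tested probe, as log2 difference with bars of 1 SE from limma, 2 arrays in each group. Filled points passed an adjusted p of 0.05, open points did not, and the dashed line is the median of all probes tested. By these probes 14 genes were lower, 15 were higher and 16 did not pass.

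Several members were read by more than 1 probe, and some of these probes differed in the parental comparison. The first 30 bases are shown as before for the genes where this mattered.
PSMB2 probe 1, chr1:35841466-35841525: gtgttcgaatcattgacaaaaatggcatcc
PSMB2 probe 2, chr1:35869475-35874498: cggatatgaattgtctcccacggcagcagc
PSMB2 probe 3, chr1:35808003-35808062: gctgtgcttggggcatggcaggaactcaat
PSMG4 probe 1, chr6:3212945-3213004: gctgagtggcagaagtgagaatttgtaaac
PSMG4 probe 2, chr6:3209037-3209096: cactctttaatggaaccatgaagcaagtcc
PSMF1 probe 1, chr20:1063812-1063871: catcacacctatccatgagcagtgggaaaa
PSMF1 probe 2, chr20:1095718-1095777: ttttttgtgagtttccttgcatcaaggaca
PSMF1 probe 3, chr20:1054195-1054254: aaagacctgtatgtcctccggtatgagtat
PSMF1 probe 4, chr20:1096367-1096426: agttgatggacagttgggttgtttctacaa
PSMA1 probe 1, chr11:14483145-14483204: tatgttttaggaatcagtccagatgtgagt
PSMA1 probe 2, chr11:14492088-14492147: gtgtcctattgcattatttctctggtggat
PSMB2 and PSMA1 lie on the minus strand and the others on the plus strand. PSMB2 probe 2 spans 5024 bases of the genome and so crosses a splice junction.

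The PSMB2 probes, which read a structural beta subunit, disagreed in sign. Probe 1 was at 3.53 and 3.54 in MIA PaCa-2 siRNA, 3.44 and 3.72 in MIA PaCa-2 parental, 4.23 and 4.44 in Capan-1 siRNA and 4.06 and 4.03 in Capan-1 parental cells, lower in parental MIA PaCa-2 (-0.47 ± 0.12, adjusted p = 0.0152, lost without MIA PaCa-2 parental replicate 1 or either Capan-1 parental replicate, up to 0.070), and probe 2 gave -0.38 ± 0.12 (adjusted p = 0.0322). The dim probe 3, which lies downstream of both, was at -2.84 and -2.88 in MIA PaCa-2 siRNA, -2.53 and -2.90 in MIA PaCa-2 parental, -3.71 and -3.64 in Capan-1 siRNA and -3.91 and -4.10 in Capan-1 parental cells, higher in parental MIA PaCa-2 (1.29 ± 0.14, adjusted p = 0.000364; 0.45 with normexp). Its accession had no match in RefSeq. After siRNA in Capan-1 all 3 probes gave alike values, 0.29 ± 0.12, 0.30 ± 0.12 and 0.33 ± 0.14.

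Other genes differed in size between probes. PSMG4 probe 2 was at -2.32 and -2.54 in MIA PaCa-2 siRNA, -3.03 and -2.82 in MIA PaCa-2 parental, -5.83 and -5.40 in Capan-1 siRNA and -6.82 and -6.05 in Capan-1 parental cells and was at least 9.13-fold higher in parental MIA PaCa-2 (adjusted p = 8.67e-05), since no Capan-1 array was above background; with normexp the difference was 0.60. PSMA1 probe 2 was at -4.18 and -4.29 in MIA PaCa-2 siRNA, -3.46 and -3.28 in MIA PaCa-2 parental, -6.60 and -7.47 in Capan-1 siRNA and -6.89 and -6.60 in Capan-1 parental cells, likewise above background only in MIA PaCa-2 and at least 7.21-fold higher there (adjusted p = 0.000106), where normexp gave 0.41; its siRNA difference in MIA PaCa-2 was -0.87 ± 0.28 (adjusted p = 0.169), with both siRNA arrays lower. All 4 PSMF1 probes were lower in parental MIA PaCa-2, by -0.72 ± 0.14 (adjusted p = 0.00441), -0.85 ± 0.088, -0.69 ± 0.13 and, for the dim probe 4, -1.79 ± 0.16 (-0.94 with normexp). PSMF1 probe 1 was at 1.34 and 1.43 in MIA PaCa-2 siRNA, 1.58 and 1.22 in MIA PaCa-2 parental, 2.19 and 2.04 in Capan-1 siRNA and 2.05 and 2.19 in Capan-1 parental cells, overlapping after siRNA in both lines. PSMF1 probe 2, at 1.40 and 1.37 in MIA PaCa-2 siRNA, 1.02 and 1.15 in MIA PaCa-2 parental, 1.91 and 2.02 in Capan-1 siRNA and 1.94 and 1.94 in Capan-1 parental cells, had the lowest unadjusted p of any member in MIA PaCa-2, 0.0144, for a higher level after siRNA (0.30 ± 0.088, adjusted p = 0.139), while probe 1 gave -0.0092 ± 0.14. PSME4 passed only by its dimmer probe, 0.37 ± 0.10 (adjusted p = 0.0161, lost without MIA PaCa-2 parental replicate 2 or Capan-1 parental replicate 2, up to 0.094), and PSMD9, a base chaperone, also by its dimmer probe, 1.06 ± 0.18 (adjusted p = 0.00218; 0.24 with normexp) against -0.0036 ± 0.088.

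**Figure D4:**
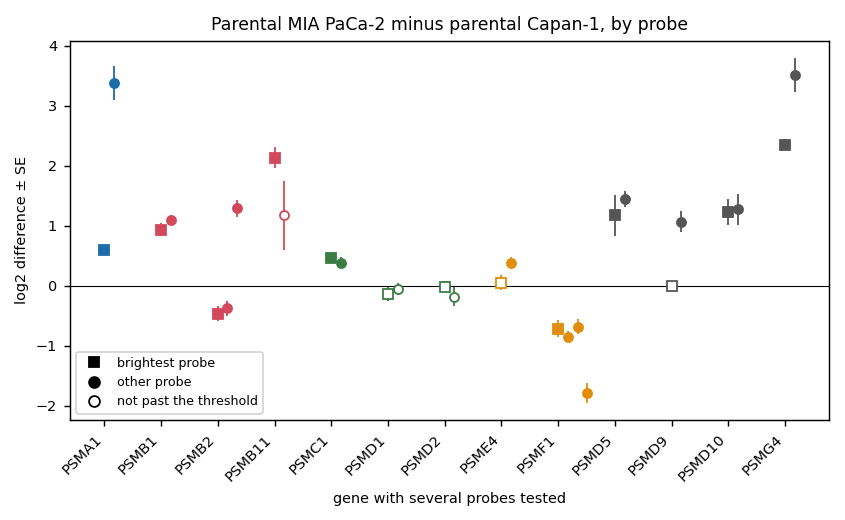
Parental MIA PaCa-2 minus parental Capan-1 for the 13 genes with several tested probes, as log2 difference with bars of 1 SE from limma. Squares are the brightest probe of a gene and circles the others, filled where the adjusted p is below 0.05. PSMB2 has probes on both sides of 0, and PSMA1 and PSMG4 have a dim second probe further from 0 than the brightest.

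Other genes of the pathway were read beside the members, from a list drawn up with results of these data known. NFE2L1 was at 2.25 and 2.23 in MIA PaCa-2 siRNA, 2.79 and 2.66 in MIA PaCa-2 parental, 3.59 and 3.45 in Capan-1 siRNA and 3.73 and 3.74 in Capan-1 parental cells, lower after siRNA in both lines without overlap (-0.49 ± 0.090 in MIA PaCa-2, adjusted p = 0.0593; -0.22 ± 0.090 in Capan-1, adjusted p = 0.406). It did not pass the threshold in either. Its sign was that of the members' median in MIA PaCa-2 and the opposite in Capan-1, and a link between them was not tested. No regulator passed in either line alone, where 4 were tested for MIA PaCa-2 and 3 for Capan-1. DDI2, the protease that activates NFE2L1, was at -4.55 and -4.40 in MIA PaCa-2 siRNA, -4.76 and -4.95 in MIA PaCa-2 parental, -5.24 and -5.60 in Capan-1 siRNA and -6.28 and -6.30 in Capan-1 parental cells. It passed averaged over the lines (adjusted p = 0.0492), but was not well above background on 3 of the 4 Capan-1 arrays, so that no size is given for this average. POMP, the core maturation factor, was at -0.88 and -1.13 in MIA PaCa-2 siRNA, -1.14 and -1.08 in MIA PaCa-2 parental, -0.84 and -1.02 in Capan-1 siRNA and -1.16 and -1.16 in Capan-1 parental cells, with differences of 0.10 ± 0.12 and 0.23 ± 0.12. Of 15 probes for other subunits and factors, 12 lay above 0 in Capan-1 (median 0.12), and 7 of 14 in MIA PaCa-2 (median 0.015); none passed. Of the 19 probes for shuttle proteins and ubiquitin, 16 lay above 0 in Capan-1 and 10 in MIA PaCa-2, and none passed.

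The immunoproteasome subunits PSMB8 and PSMB9 were lower in parental MIA PaCa-2 than in parental Capan-1 cells, while PSMB10 did not pass. PSMB8, the counterpart of PSMB5, was at -0.63 and -0.51 in MIA PaCa-2 siRNA, -0.45 and -0.49 in MIA PaCa-2 parental, 1.62 and 1.63 in Capan-1 siRNA and 1.71 and 1.74 in Capan-1 parental cells (-2.20 ± 0.081 between the parental lines, adjusted p = 3.84e-06). PSMB9, the counterpart of PSMB6, was at 1.80 and 1.74 in MIA PaCa-2 siRNA, 1.68 and 1.80 in MIA PaCa-2 parental, 3.29 and 3.54 in Capan-1 siRNA and 3.29 and 3.16 in Capan-1 parental cells (-1.49 ± 0.11, adjusted p = 7.42e-05). After siRNA they gave -0.10 ± 0.081 and 0.034 ± 0.11 in MIA PaCa-2, whereas Capan-1 gave -0.10 ± 0.081 and 0.19 ± 0.11. Interferon-stimulated genes, set beside them because PSME1, PSME2 and PSMB10 are interferon-inducible, had a Capan-1 median of 0.28 over 17 probes, 14 of them above 0 and none past the threshold. In MIA PaCa-2 their median was -0.040, and IFI27 and IFI6 were higher (2.09 ± 0.10 and 0.82 ± 0.12, adjusted p = 0.00559 and 0.0415). Averaged over both lines, 4 of their 17 probes passed, all higher (background 2.06%), with 15 above 0 and a median of 0.22. Whether the PSME2 difference in Capan-1 belongs with these genes was not tested.

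Promoters of the members were searched in RefSeq sequence (GRCh38.p14, 250 bases before to 50 after the start site), which held 40 of the 46 genes. The letters TGACNNNGC, the core of the antioxidant response element that NFE2L1 and NFE2L2 bind, stood on either strand in 12 of the 40, 30%, against 13.6% of 27305 promoters. CCAAT stood in 18, 45%, against 35.7%, and no match of the one overlapped a match of the other. TGACNNNGC was in 0 of 7 alpha subunit promoters, 1 of 6 beta, 2 of 8 base, 2 of 8 lid, 3 of 5 activator and inhibitor and 4 of 6 chaperone promoters. Such matches are letters in a window, and no binding was measured. The 250 bases before the start site are shown for PSMB3, PSMD12 and PSME2, a member of the core, the lid and the activators with a match, with TGACNNNGC in capitals.
PSMB3, chr17:38752491-38752740, plus strand: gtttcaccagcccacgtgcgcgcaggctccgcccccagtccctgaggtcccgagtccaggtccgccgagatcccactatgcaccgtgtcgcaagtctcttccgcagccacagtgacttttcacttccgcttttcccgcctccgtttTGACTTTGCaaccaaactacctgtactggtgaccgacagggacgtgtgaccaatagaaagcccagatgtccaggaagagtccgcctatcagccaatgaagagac
PSMD12, chr17:67366578-67366827, minus strand: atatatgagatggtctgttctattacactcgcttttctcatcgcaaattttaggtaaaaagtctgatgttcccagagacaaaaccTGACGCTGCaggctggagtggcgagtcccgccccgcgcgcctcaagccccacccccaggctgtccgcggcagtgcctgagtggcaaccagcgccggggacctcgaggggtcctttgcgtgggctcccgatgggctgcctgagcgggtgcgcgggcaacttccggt
PSME2, chr14:24146611-24146860, minus strand: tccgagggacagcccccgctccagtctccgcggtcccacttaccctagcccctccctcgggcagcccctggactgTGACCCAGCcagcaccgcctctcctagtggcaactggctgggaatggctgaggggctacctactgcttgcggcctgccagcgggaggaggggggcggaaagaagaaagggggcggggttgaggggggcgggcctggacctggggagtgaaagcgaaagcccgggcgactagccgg
The matches began 104, 165 and 175 bases before the start site. The Capan-1 differences of these genes were 0.24 ± 0.14, 0.18 ± 0.11 and 0.27 ± 0.075. PSMA4 (0.40 ± 0.11) and PSMB5 (0.35 ± 0.080) held no match. None of these differences passed the threshold, and whether members with and without a match differ was not tested.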

How the data were processed

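The deposited files held, for each of 8 one-colour Agilent arrays, the intensity of every spot as the authors scanned and background-corrected it with Feature Extraction 9.5.3, and a log2 table deposited with them that equalled log2 of the same processed intensity. Levels were log2 of the processed intensity minus each array's 75th percentile over gene probes, with spots of a probe averaged and outlier spots left out. A probe entered a test if 1 or more of the groups compared had it well above background on each array. Group means of all 8 arrays were fitted in limma 3.58.1 (R 4.3.3) with Benjamini-Hochberg adjustment over all probes tested, at 0.05. Of 63 member probes, 61 had an accession in RefSeq, all under the same symbol.

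The members and all other lists were chosen with earlier results of these data known. A gene was given by array if a probe passed in any comparison, or if its brightest probe had the highest or lowest value of its class; at most 8 a class. Other scalings, background corrections, filters, fits and each array left out were tried.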

Additional observations from a re-analysis of the deposited data

Results flagged for a closer look

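The median siRNA minus parental difference of the proteasome genes, relative to that of all probes, had opposite signs in the 2 lines: -0.099 for MIA PaCa-2 and, for Capan-1, 0.128. The 2 siRNA arrays were lower than either parental array in the former and higher in the latter. The difference between the lines was not tested for this median. Probe by probe, 0 of 61 members passed the limma test of that difference, where 0.00391% of all probes did.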

How the results depend on the processing

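In the siRNA comparisons 0 members passed under every alternative run, the replicate block included. The numbers 1 and 2 did not pair the arrays by the check made (correlations of replicate deviations 0.020 for MIA PaCa-2, 0.029 for Capan-1 and -0.045 between the parental arrays), and a fit with the replicate number as a block called 29 in place of 30 genes between the parental lines, losing PSME1 (adjusted p 0.065). Relative to all probes, the members' median kept its sign in MIA PaCa-2 (-0.178 with normexp background correction; -0.125 to -0.086 with 1 array left out) and in Capan-1 (0.045 with normexp; 0.062 to 0.198). That of the difference between the lines, -0.244, was -0.170 with quantile normalization, -0.189 against bright probes only (chosen after seeing the data) and -0.277 to -0.181 with 1 array left out. Averaged over the lines the median of 0.023 turned to -0.084 with normexp. Between the parental lines the median of -0.147 was 0.0044 with no filter on dim probes, -0.295 with quantile normalization, -0.198 against bright probes only and -0.220 to -0.115 with 1 array left out. Without scaling 19 genes passed there, 8 lower and 11 higher, in place of 30, 13 and 17; with 1 array left out 24 to 28 did, 12 to 14 lower and 12 to 16 higher.

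Without scaling all probes moved by -0.194 for MIA PaCa-2 and -0.158 for Capan-1, against 0.019 and -0.0055. The members' own median then turned to -0.030 in Capan-1 and -0.155 averaged over the lines, and to -0.0078 for the latter with normexp. Single values near 0 changed sign. In Capan-1 without scaling PSMA6 was -0.13 and PSMB1 -0.015, and in MIA PaCa-2 PSMB10 was -0.12, PSMC4 -0.18, PSMD11 -0.10, PSME2 -0.21 and PSMG3 -0.0028. With normexp PSMB11 was 0.035, PSMC4 -0.10, PSMD11 -0.047 and PSME2 -0.082 in MIA PaCa-2. With quantile normalization PSMA6 was -0.10 in Capan-1 and PSME2 -0.023 in MIA PaCa-2. With 1 array left out the ranges in Capan-1 were -0.055 to 0.091 for PSMA6, -0.15 to 0.020 for PSMC3 and -0.57 to 0.32 for PSMD5, and in MIA PaCa-2 -0.044 to 0.0019 for PSMA7, -0.093 to 0.28 for PSMB10, -0.057 to 0.12 for PSMC4, -0.023 to 0.030 for PSME2 and -0.31 to 0.051 for PSME3. The MIA PaCa-2 call of HOXB7 was lost with normexp (-0.10), the block, no filter on dim probes and a fit of its own 4 arrays. Between the parental lines PSMD8 lost its call with the percentile over detected probes and in a fit of its own 4 arrays, PSME4 with normexp, and PSME1 under 8 alternatives beside the arrays left out; PSMG2 passed with normexp (-0.24). The cause was not tested. In Capan-1, 4 member probes that were tested in MIA PaCa-2 had no siRNA test, being above background on at most 1 array of each group.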
